A study of Rattus norvegicus with 16 samples.

Results

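*Aacs*, *Bdh1*, *Acat1* and *Oxct1* encode enzymes that make, interconvert or use ketone bodies, and their mRNA was followed in rat hepatoma H35 cells in which *Pdrg1* had been silenced. The genes were taken by their names on the array, which gave 4 of the 26269 gene names and 4 of the 30367 probes, 1 probe for each gene. The cells were measured on 16 one-color arrays, 4 biological replicates in each of 4 groups, to ask how lowering *Pdrg1* changes gene expression. All groups were H35 cells that received an shRNA plasmid and were selected with G418, the antibiotic to which the plasmid gives resistance. CN-10 is 1 stable clone with the negative control sequence, 4-18 is 1 stable clone with the shRNA4 sequence and 3-44 is 1 stable clone with the shRNA3 sequence, and these clones were selected with up to 4 mg/ml G418. shRNA3T is an enriched pool, given the shRNA3 plasmid by transient transfection and 1.8 mg/ml G418. Every silenced group was compared with the same CN-10 arrays, so the comparisons share their controls. The control and shRNA4 plasmids are each carried by a single clone, so clone and plasmid cannot be told apart there. The shRNA3 plasmid is carried by 3-44 and by the pool, which also differ in transfection and in G418. The pool was set against a clone and not against a control pool. The replicates are called biological in the labels and no separate cultures are named, so p-values measure the spread between these samples.

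Ketone bodies are small fuels that liver mitochondria make from acetyl-CoA, mostly when fatty acids are being oxidised, and that other organs burn. ACAT1 is the mitochondrial thiolase that joins acetyl-CoA molecules into acetoacetyl-CoA, and it also runs backwards when ketone bodies are broken down and in the last step of isoleucine degradation. BDH1 interconverts acetoacetate and 3-hydroxybutyrate in mitochondria. OXCT1, also called SCOT, activates acetoacetate with succinyl-CoA for oxidation and is known to be absent from hepatocytes, which therefore export ketone bodies. AACS is a cytosolic ligase that activates acetoacetate with ATP, so that its carbon can enter the synthesis of cholesterol and fatty acids.

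The sequences read on the array show what each value stands for. Each probe is 60 bases long, and its position is that of the array files in the rat build rn4. The *Aacs* probe (A_42_P589190, chr12:32207278-32207337, minus strand) starts at base 2716 of its transcript, the *Bdh1* probe (A_44_P1004536, chr11:71130669-71130728, minus strand) at base 1449, the *Acat1* probe (A_44_P219668, chr8:57056663-57056722, minus strand) at base 517 and the *Oxct1* probe (A_42_P746868, chr2:53217671-53217730, plus strand) at base 3129. Without an rn4 annotation, the exon or other gene part under each probe is not given. The *Acat1* probe is given whole and the others by their first 30 bases, 5′ to 3′.
*Acat1*: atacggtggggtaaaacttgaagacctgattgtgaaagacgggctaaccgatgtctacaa
*Aacs*: gtttctgggtcttaacagcacaagtatttg
*Bdh1*: ctgtctatctagagttgattttatataaag
*Oxct1*: tggatatgtcttcacatgcacttgcttatc
*Aacs* and *Oxct1* were printed in 10 spots on every array, and *Bdh1* and *Acat1* in 1 spot, so the first pair has a technical average behind each value and the second pair does not.

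*Pdrg1*, the targeted gene, averaged 13.64 ± 0.22 on the normalized log2 scale in the CN-10 clone, against 12.87 ± 0.87 for 4-18, 12.65 ± 0.51 for 3-44 and 12.79 ± 0.27 for shRNA3T (SD, n = 4 arrays each). Every silenced array lay below every CN-10 array, while the adjusted p in limma was 0.129, 0.105 and 0.143 (under 0.05 in 6, 5 and 7 of 28 alternatives). Without replicate 1 of 4-18 the log2 difference of that clone went from -0.77 to -0.33. The arrays of 4-18 were the dimmest, with a 75th percentile of spot signal of 1614 to 1946 against 2328 to 3692 in the other groups, and every group had its own slide, which cannot be told apart from the group. The 4-18 slide was also scanned on another day than the other 3. Between 53.1% and 74.3% of gene spots per array were well above background. Of 14 cell type markers, albumin was bright in all groups (mean log2 17.14 to 17.31), alpha-fetoprotein, a fetal liver and hepatoma marker, lay between 13.03 and 13.91, and the leukocyte gene *Ptprc* and the endothelial gene *Pecam1* passed that limit on none of the arrays. *Kdr*, also endothelial, passed it on 3 CN-10 and 3 shRNA3T arrays, and *Col3a1* of fibroblasts on 3 CN-10, 2 3-44 and 2 shRNA3T arrays. The macrophage gene *Cd68* lay between 7.36 and 7.78 and the fibroblast gene *Col1a1* between 8.01 and 8.53. Hepatocyte markers were not level between groups, with *Ttr* at 13.76 in CN-10 (3 arrays) and 16.14 to 16.69 in the silenced groups. *Apoa1* was at 8.04 in 4-18, 10.16 in CN-10, 10.19 in shRNA3T and 12.34 in 3-44. *Tf* and *Fgb* were lowest in 4-18, at 14.92 and 13.72 (3 arrays for *Fgb*) against 16.43 and 14.39 in CN-10. *Hnf4a* lay between 7.01 and 7.83 and the fibroblast gene *Col1a2* between 7.38 and 7.66. The part of these markers in the results below was not tested.

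*Aacs* was higher than in CN-10 in all 3 silenced groups, and *Acat1* was lower in 4-18 and in the shRNA3T pool. *Bdh1* did not pass the test in any comparison and *Oxct1* did not rise above background. The 3 comparisons share 1 control clone, so a level particular to CN-10 cannot be told apart from a change in the silenced groups. In the limma fit over all arrays, with a Benjamini-Hochberg adjusted p under 0.05 as the criterion, 2 of the 4 genes changed in 4-18, 1 in 3-44 and 2 in shRNA3T against CN-10. Over all probes the same criterion was passed by 23.6%, 7.85% and 11.9%. In 4-18 and in shRNA3T 1 gene was higher and 1 lower, beside 11.6% of probes higher and 12% lower in 4-18 and 5% higher and 6.85% lower in shRNA3T. In 3-44 the single change was upward, where 3.48% of probes were higher and 4.37% lower. As reported here, no gene of the 4 also reached a 2-fold change, a limit that 5.91%, 1.4% and 2.29% of probes reached with the adjusted p in 4-18, 3-44 and shRNA3T. With 4 genes, the counts say little about the group as a whole, and the values of each gene follow.

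**Figure D1:**
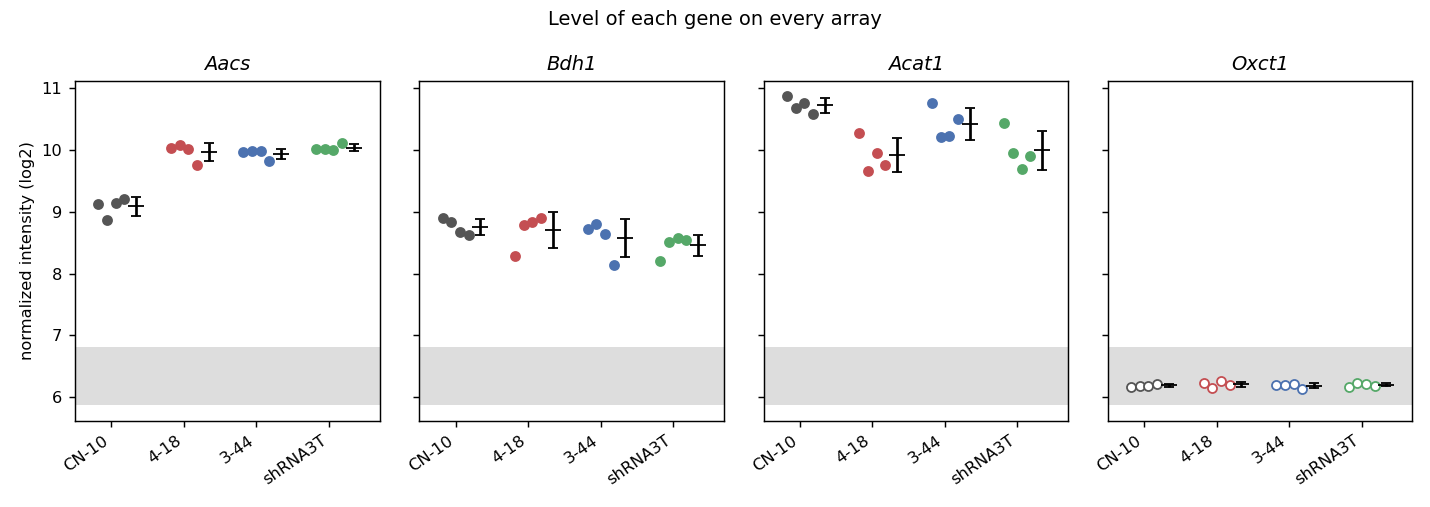
Normalized log2 intensity of each gene on every array. Points are arrays in the order of replicates 1 to 4, filled where the probe was well above background, bars are the group mean ± SD, and the grey band spans, over the 16 arrays, the lowest signal of any probe well above background (5.87 to 6.81). *Aacs* separates CN-10 from the 3 silenced groups, *Acat1* is lower in 4-18 and shRNA3T, and *Oxct1* stays inside the band.

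*Aacs*, the cytosolic ligase for acetoacetate, had the clearest difference. In CN-10 its normalized log2 intensity was 9.13, 8.86, 9.15 and 9.20 on the arrays of replicates 1 to 4. The 4-18 arrays read 10.02, 10.08, 10.01 and 9.76. The 3-44 arrays read 9.96, 9.97, 9.97 and 9.82. Every array of both clones was thus higher than every CN-10 array. The pool shRNA3T read 10.01, 10.01, 9.99 and 10.12, also above all CN-10 arrays, and the silenced groups overlapped in range apart from 3-44 and shRNA3T.

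The CN-10 arrays averaged 9.08 ± 0.15 for *Aacs*, and the averages of 4-18, 3-44 and shRNA3T were 9.97 ± 0.14, 9.93 ± 0.08 and 10.03 ± 0.06 (log2, SD, n = 4). Against CN-10 the increase was 1.85-fold in 4-18 (95% interval 1.62 to 2.10, adjusted p = 3.3e-06 by limma). It was 1.80-fold in 3-44 (1.58 to 2.05, adjusted p = 2.63e-05) and 1.93-fold in shRNA3T (1.70 to 2.20, adjusted p = 5.1e-06). The increases were several times their standard error of 0.09 on the log2 scale. In each comparison the two-sided exact permutation p was 0.0286, the smallest that 4 arrays against 4 can give, and arrays did not overlap either for 22.8%, 15.9% and 21.6% of all probes in 4-18, 3-44 and shRNA3T. Of all probes, 1.1% passed as higher in each of the 3 comparisons, as *Aacs* did, and 1.19% passed as lower in each.

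No difference in *Aacs* between silenced groups passed the test. The log2 difference was 0.04 between 4-18 and 3-44 (95% interval -0.15 to 0.22, adjusted p = 0.811 by limma) and -0.06 between 4-18 and shRNA3T (-0.25 to 0.12, adjusted p = 0.69). Between 3-44 and shRNA3T it was -0.10 (-0.29 to 0.09, adjusted p = 0.559), although the highest 3-44 array (9.97) lay below the lowest shRNA3T array (9.99), a separation that 21.7% of probes showed in this comparison. These intervals do not show that the levels are equal.

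Before normalization the separation of *Aacs* was not the same in each group. The mean signal of its 10 spots was 536 to 749 in CN-10 and 583 to 851 in 4-18, so the ranges overlapped, while 805 to 1231 in 3-44 and 1033 to 1422 in shRNA3T lay above CN-10. With the deposited values, which are made from median spot signals and are not scaled between arrays, the log2 difference in 4-18 was 0.31 (adjusted p = 0.374 by limma) and that in 3-44 was 0.76 (adjusted p = 0.24). With arrays set to equal medians and no quantile normalization both clones passed, at 0.56 in 4-18 (adjusted p = 0.0433) and 0.90 in 3-44 (adjusted p = 0.0399). That setting called 56.8% of all probes in 4-18 and 1.94% in 3-44 and moved the median probe of 4-18 by 0.39, so that *Aacs* was 0.17 above the median there. In shRNA3T *Aacs* passed the test in all 28 alternatives (log2 difference 0.87 to 1.04).

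**Figure D2:**
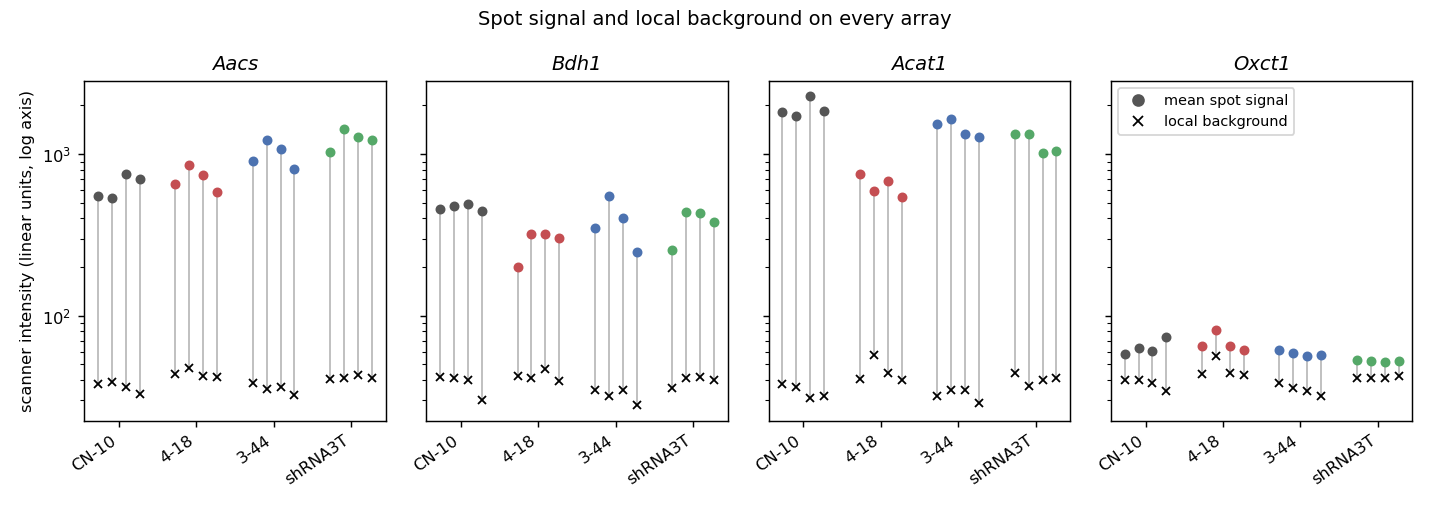
Mean spot signal (points) and local background (crosses) of each gene on every array, in linear scanner units on a log axis, before any normalization. *Aacs* signal in 4-18 (583 to 851) overlaps CN-10 (536 to 749), and of the 4 genes *Oxct1* (51.8 to 81.2) lies closest to its background (31.7 to 56.8).

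*Acat1*, the mitochondrial thiolase, moved in the other direction. The CN-10 arrays read 10.86, 10.67, 10.75 and 10.58 on the normalized log2 scale. The 4-18 arrays read 10.28, 9.65, 9.96 and 9.76, all below CN-10. The shRNA3T arrays read 10.43, 9.95, 9.69 and 9.90, likewise all below CN-10. The 3-44 arrays read 10.75, 10.21, 10.22 and 10.50, and the first of them lay inside the CN-10 range. In all 4 groups, CN-10 included, replicate 1 was the array with the highest *Acat1* and the lowest *Pdrg1* (13.41 for CN-10, then 11.57, 11.89 and 12.39 for 4-18, 3-44 and shRNA3T).

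The CN-10 mean of *Acat1* was 10.72 ± 0.12, and those of 4-18, 3-44 and shRNA3T were 9.91 ± 0.27, 10.42 ± 0.26 and 9.99 ± 0.31 (log2, SD, n = 4). It was 42.8% lower in 4-18 than in CN-10 (log2 difference -0.81, standard error 0.17, adjusted p = 0.00247 by limma, exact permutation p = 0.0286). In shRNA3T it was 39.5% lower (-0.73, adjusted p = 0.00981, exact permutation p = 0.0286). In 3-44 the log2 difference was -0.30 with a 95% interval of -0.65 to 0.06 (adjusted p = 0.376 by limma, exact permutation p = 0.143), so neither no change nor a fall of 0.65 is outside the interval. The call in shRNA3T was lost when arrays were only set to equal medians (-0.67, adjusted p = 0.149) and with the unscaled deposited values (-0.71, adjusted p = 0.142), and the call in 4-18 held in all 28 alternatives. In 4 of them the fall in 4-18 was over 2-fold (-1.04 and -1.10 with the processed signal, -1.18 with equal medians and -1.40 with the deposited values).

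The clones also differed from each other in *Acat1*. It was 29.8% lower in 4-18 than in 3-44 (log2 difference -0.51, 95% interval -0.87 to -0.15, adjusted p = 0.0407 by limma), the 1 call among the 4 genes in a comparison where 22.1% of probes passed. The array ranges overlapped (10.28 highest in 4-18, 10.21 lowest in 3-44) and the exact permutation p was 0.0857. The call was lost in 11 of 28 alternatives, 9 of which left out a single array (replicate 2 or 3 of CN-10, 2, 3 or 4 of 4-18, 1 or 4 of 3-44, 2 or 4 of shRNA3T), with adjusted p between 0.015 and 0.117 over the arrays left out one at a time. It was larger with the processed signal (-1.04 and -1.11, adjusted p = 8.12e-05 and 4.83e-05), equal medians (-0.91) and the deposited values (-1.01). None of the 4 genes passed between 4-18 and shRNA3T, where 20.1% of probes did, or between 3-44 and shRNA3T, where 10.6% did. *Acat1* was 0.43 higher on the log2 scale in 3-44 than in shRNA3T (95% interval 0.07 to 0.79, adjusted p = 0.131 by limma) and differed by -0.08 between 4-18 and shRNA3T (-0.44 to 0.28, adjusted p = 0.808). The former passed in 6 of 28 alternatives, among them without replicate 1 of shRNA3T (0.58, adjusted p = 0.0344) and with the processed signal (0.66, adjusted p = 0.0065).

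**Figure D3:**
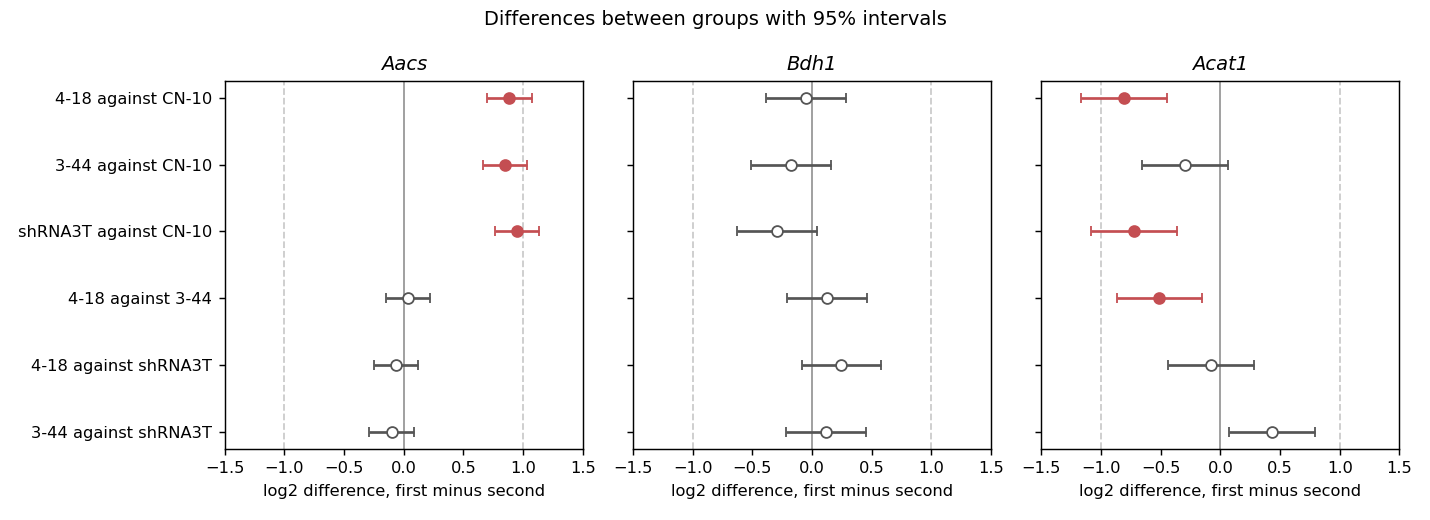
Log2 differences of *Aacs*, *Bdh1* and *Acat1* (first group minus second) with 95% intervals from the limma fit, filled where the adjusted p was under 0.05, with dashed lines at a 2-fold change. *Aacs* lies at 0.85 to 0.95 against CN-10 and near 0 among the silenced groups, and *Acat1* is below 0 in 4-18 and shRNA3T against CN-10 and in 4-18 against 3-44.

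*Bdh1*, the dehydrogenase between acetoacetate and 3-hydroxybutyrate, was well above background on all 16 arrays. Its log2 intensity was 8.90, 8.83, 8.67 and 8.63 in CN-10. It was 8.28, 8.79, 8.84 and 8.90 in 4-18. In 3-44 it was 8.73, 8.81, 8.63 and 8.13, and both clones overlapped with CN-10. In shRNA3T it was 8.20, 8.50, 8.58 and 8.54, all below the lowest CN-10 array.

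The group means of *Bdh1* were 8.75 ± 0.13, 8.70 ± 0.28, 8.58 ± 0.30 and 8.46 ± 0.17 in CN-10, 4-18, 3-44 and shRNA3T (log2, SD, n = 4). Against CN-10 the log2 difference was -0.05 in 4-18 (95% interval -0.39 to 0.28, adjusted p = 0.866 by limma) and -0.18 in 3-44 (-0.51 to 0.16, adjusted p = 0.606). In shRNA3T it was -0.30 (-0.63 to 0.04, adjusted p = 0.289, exact permutation p = 0.0286). All 3 intervals lie inside a 2-fold change in either direction, and smaller changes are within them. *Bdh1* passed the test in none of the 28 alternatives in any of the 3 comparisons. The low arrays were replicate 1 in 4-18 and shRNA3T and replicate 4 in 3-44, and without replicate 1 of 4-18 the difference of that clone was 0.09.

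*Oxct1*, the transferase of ketone oxidation, gave no signal that could be told from background. Of its 160 spots over the arrays, 3 were marked as well above background, on 3 arrays, and all 3 were also marked as outliers by the scanner software. The CN-10 arrays ranged from 6.17 to 6.22 on the normalized log2 scale, and those of 4-18, 3-44 and shRNA3T from 6.16 to 6.26, 6.14 to 6.22 and 6.17 to 6.23. The groups overlapped in that narrow range, and no fold change is given because neither side of any comparison was above background. The mean spot signal of 51.8 to 81.2 compares with a local background of 31.7 to 56.8.

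Over the 16 arrays *Aacs* and *Acat1* ran in opposite directions (Pearson r = -0.67), while *Bdh1* ran with neither (-0.34 with *Aacs* and -0.07 with *Acat1*). The genes whose level ran most like each of them over the 16 arrays were looked up among 16467 others that rose above background throughout at least 1 group (16468 for *Oxct1*). These correlations are a description with no test, since arrays of a group share clone and slide. For *Aacs* they were *RGD1305347* (Pearson r = 0.97), *Mttp*, which loads lipid onto lipoproteins (0.97), and *Aldoc*, aldolase C of glycolysis (0.96). The log2 difference of *Mttp* from CN-10 was 2.70 in 4-18, 3.04 in 3-44 and 2.92 in shRNA3T. For *Acat1* they were *Prmt5*, an arginine methyltransferase, *Ash2l*, a subunit of histone methyltransferases, and the tubulin gene *Tuba4a* (0.94 each). *Prmt5* differed from CN-10 by -0.86, -0.28 and -0.68 in 4-18, 3-44 and shRNA3T. The likeness of these values to those of the member follows from how the genes were picked. For *Bdh1* they were *RGD1561453* (0.85), the chaperonin gene *Cct6a* (0.83) and *RGD1559531* (0.83). The values of *Oxct1*, at background, were most like those of *Tbc1d22a* (0.87).

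**Figure D4:**
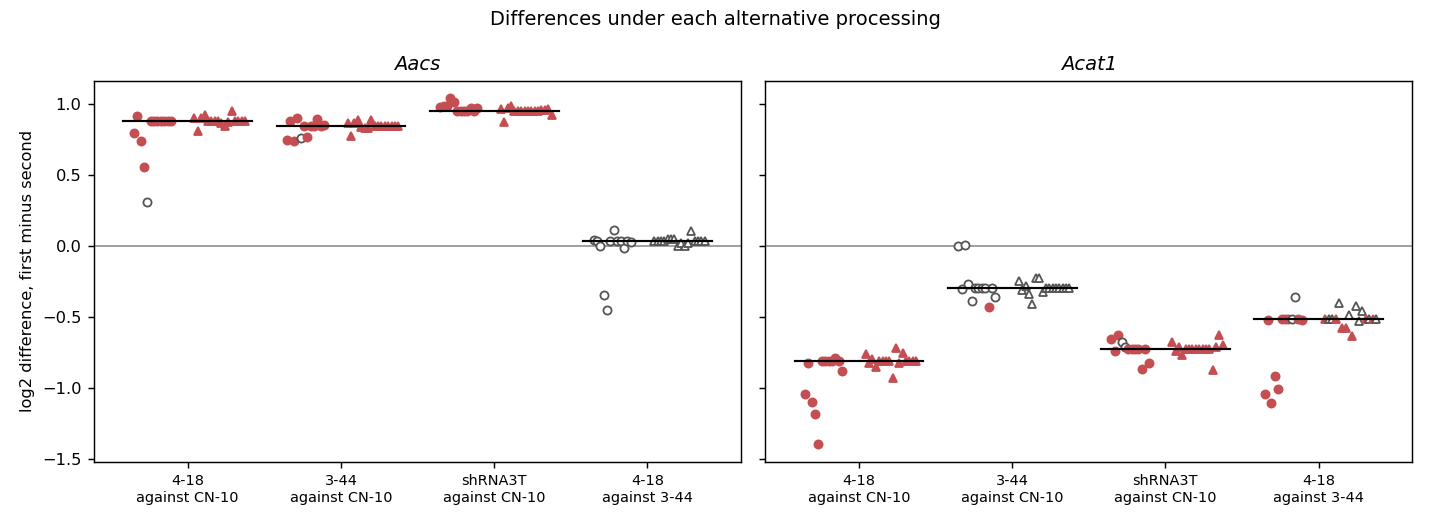
Log2 differences of *Aacs* and *Acat1* under each alternative, with circles for other processing or fits, triangles for 1 array left out and the reported value as a line. Points are filled and red where the adjusted p was under 0.05. *Aacs* against CN-10 stays above 0 and falls to 0.31 in 4-18 with unscaled values, and *Acat1* in 3-44 ranges from -0.43 to 0.01.

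The promoters of the 2 genes that changed are shown for context, since they moved in opposite directions. They are the 250 bases before the RefSeq start on the GRCr8 build, at chr12:36817775-36818024 for *Aacs* and at chr8:62905043-62905292 for *Acat1*, both on the minus strand. Capitals mark exact matches on either strand to CCAAT (the CCAAT box) and GGGCGG (the GC box).
*Aacs*: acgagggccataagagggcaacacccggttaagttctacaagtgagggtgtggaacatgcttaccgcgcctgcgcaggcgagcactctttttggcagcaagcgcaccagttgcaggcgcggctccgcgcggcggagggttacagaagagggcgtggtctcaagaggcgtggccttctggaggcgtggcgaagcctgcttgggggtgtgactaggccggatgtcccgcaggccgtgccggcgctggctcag
*Acat1*: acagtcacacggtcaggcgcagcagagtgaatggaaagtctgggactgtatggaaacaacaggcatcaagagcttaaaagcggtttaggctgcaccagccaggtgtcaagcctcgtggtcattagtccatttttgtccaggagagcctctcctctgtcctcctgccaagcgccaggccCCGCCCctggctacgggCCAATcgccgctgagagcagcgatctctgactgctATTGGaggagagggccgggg
The *Acat1* window holds 2 CCAAT boxes, which start 55 and 20 bases before the start of the gene, and 1 GC box at 72 bases, and the *Aacs* window holds neither. Of 33465 rat promoter windows of this length, 34% held CCAAT and 30.5% held GGGCGG. The sterol regulatory element of the LDL receptor gene (0.105% of windows), the E-box CACGTG (5.59%), the TATA box TATAAA (12.9%), the cAMP response element TGACGTCA (1.59%), the nuclear receptor half-site AGGTCA (14.1%) and the PPAR direct repeat of that half-site with 1 base between (0.0508%, each match of which also holds the half-site) had no match in the window of any of the 4 genes. The windows of *Bdh1* and *Oxct1* held 1 and 2 GC boxes.

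Around these enzymes stand the genes that feed, move and control ketone bodies. A list of 44 such genes was used, of which 41 were on the array by name. In 4-18, 10 were higher and 1 lower than in CN-10 (26.8% of the list), in 3-44 8 were higher and 2 lower (24.4%), and in shRNA3T 11 were higher and 1 lower (29.3%). Over all probes 23.6%, 7.85% and 11.9% passed, and over those well above background throughout at least 1 group, as 39 of the 41 genes were, 38.1%, 13.5% and 20.3% passed. The share of the list in 4-18 is thus not above that of comparable probes. The median log2 difference of the list was 0.26, 0.15 and 0.16, where that of all genes was 0.00, -0.01 and -0.01. The list was chosen with results of these data known, so these counts are a description. They fell to 6, 1 and 3 with the unscaled deposited values, and the 10 of 3-44 fell to 1 with equal medians and to 5 without replicate 2, 3 or 4 of CN-10 or replicate 3 of 3-44.

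*Cpt1a* and *Ppara* were the genes of the list that changed in all 3 silenced groups. CPT1A brings long-chain fatty acids into mitochondria, the step that controls the supply for ketone body synthesis. *Cpt1a* was 1.70-fold higher in 4-18, 1.24-fold higher in 3-44 and 1.99-fold higher in shRNA3T than in CN-10 (adjusted p = 7.24e-06, 0.0295 and 1.8e-06 by limma), and its call in 3-44 was lost in 9 of 28 alternatives, among them without replicate 3 or 4 of CN-10 or 1 or 3 of 3-44 (adjusted p up to 0.0969). *Ppara*, the nuclear receptor that turns on fatty acid oxidation and ketogenesis in fasting, was 2.23-fold, 1.51-fold and 1.71-fold higher (adjusted p = 1.23e-05, 0.0104 and 0.00106), and these calls were lost in 1, 2 and 1 of 28 alternatives (adjusted p up to 0.0701, 0.747 and 0.123). The call of *Cpt1a* in 4-18 was lost in 2 of 28 alternatives (adjusted p up to 0.874), and with the unscaled values it differed there by 0.05 on the log2 scale.

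Among enzymes related to the members, 0 of 8 changed in 4-18, 3 in 3-44 and 4 in shRNA3T, all upward, where 11.6%, 3.48% and 5% of all probes were higher. *Acaa1b*, a peroxisomal thiolase, was 2.36-fold higher in 3-44 and 2.23-fold higher in shRNA3T (adjusted p = 2.49e-05 and 2.39e-05 by limma). A second probe of *Acaa1b* gave 2.30-fold and 2.49-fold. Whether these probes also bind mRNA of the near copy *Acaa1a* was not tested. *Acss2*, which makes cytosolic acetyl-CoA from acetate, was 1.72-fold and 2.64-fold higher in the same groups (adjusted p = 0.0051 and 3.14e-05), with 3 CN-10 arrays in the fit because 1 spot was set aside as an outlier. Its call in 3-44 was lost in 4 of 28 alternatives (adjusted p up to 0.743). *Oxct2a*, a relative of *Oxct1* known from testis and named here after its values were seen, was above background on 2 arrays of CN-10 and 2 of 3-44 and passed in no comparison.

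Of the 5 transport genes, none changed in 4-18, 1 in 3-44 and 2 in shRNA3T, where 23.6%, 7.85% and 11.9% of all probes did, and so few genes do not set a group apart. *Slc16a6*, a transporter linked to export of ketone bodies from the liver, was 49.6% lower in 3-44 and 60% lower in shRNA3T than in CN-10 (adjusted p = 0.0292 and 0.00312 by limma), while its log2 difference in 4-18 was 0.27 (adjusted p = 0.524). *Slc16a1*, a monocarboxylate transporter that also carries lactate, was 2.33-fold higher in shRNA3T (adjusted p = 0.0374) and had a log2 difference of 1.16 in 3-44 (adjusted p = 0.062). The CN-10 arrays of *Slc16a1* ranged from 9.69 to 11.03. The call of *Slc16a6* in 3-44 was lost without replicate 2, 3 or 4 of CN-10 (adjusted p up to 0.0839), and that of *Slc16a1* without replicate 2 or 4 of CN-10 or any 1 array of shRNA3T (up to 0.113).

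Of the 6 genes of fatty acid supply 2 were higher in each silenced group, and of the 7 of leucine supply 3 changed in 4-18, 1 in 3-44 and 1 in shRNA3T, where 23.6%, 7.85% and 11.9% of all probes passed. *Cpt2*, the inner partner of *Cpt1a*, was 1.27-fold higher in both 3-44 and shRNA3T (adjusted p = 0.0405 and 0.0283 by limma), and those calls were lost in 17 and 8 of 28 alternatives. Single arrays were enough for that (replicate 1, 2 or 4 of CN-10 and 2, 3 or 4 of shRNA3T for both calls, and for 3-44 also its replicate 1, 2 or 3), with adjusted p up to 0.118 and 0.0855. *Hadha*, a subunit of the mitochondrial trifunctional protein, was 1.68-fold higher in 4-18 by its brighter probe (adjusted p = 0.0107), where its second probe gave a log2 difference of 0.19, and that second probe was lower in 3-44 and shRNA3T (-0.56 and -0.45). The probes of *Hadha* disagree and no direction is drawn. Its place among the genes counted as higher in 4-18, here and in the whole list, rests on the brighter probe alone. *Bckdha* and *Bckdhb* encode subunits of the complex that degrades branched-chain keto acids. *Bckdha* was 2.15-fold higher in 4-18 and 1.65-fold higher in shRNA3T (adjusted p = 0.000505 and 0.0198), and *Bckdhb* was 43.2% lower in 4-18 (adjusted p = 0.00766). The call of *Bckdha* in shRNA3T was lost without replicate 1 or 3 of CN-10 or 4 of shRNA3T (adjusted p up to 0.0659).

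Of the 4 genes for citrate and succinyl-CoA, 2 changed in 3-44 and none in the other groups against CN-10, beside the same shares of all probes. *Cs*, citrate synthase, which draws acetyl-CoA into the citric acid cycle, was 1.38-fold higher there (adjusted p = 0.00235 by limma). That call was lost in 4 of 28 alternatives (adjusted p up to 0.979). *Suclg1*, a subunit of succinyl-CoA ligase, was 30.4% lower in 3-44 (adjusted p = 0.038), a call lost without any 1 of 7 arrays (replicate 1, 2 or 3 of CN-10, 2, 3 or 4 of 3-44, 2 of shRNA3T, adjusted p up to 0.103). *Cs* was also higher in 3-44 than in 4-18 and shRNA3T (adjusted p = 0.00074 and 0.044), and *Suclg1* was lower in 3-44 than in 4-18 (adjusted p = 0.0117) and did not pass against shRNA3T (0.19). Of the 6 genes of cytosolic acetyl-CoA use and sterol control, 3 were higher in 4-18, none changed in 3-44 and 2 were higher in shRNA3T, beside the same shares of all probes. *Fasn*, fatty acid synthase, was 2.52-fold higher in 4-18 and 1.39-fold higher in shRNA3T (adjusted p = 4.53e-06 and 0.035), the latter lost without any 1 of 7 arrays (each of CN-10 and replicate 1, 3 or 4 of shRNA3T, adjusted p up to 0.0949), and *Acaca*, acetyl-CoA carboxylase, was 1.63-fold higher in 4-18 (adjusted p = 0.000636).

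*Ppargc1a*, the coactivator that works with *Ppara* in fasting, was well above background on the 4-18 arrays alone. Its log2 level there was 8.58 ± 0.30 (SD, n = 4), and the other groups had no array above background, so it was at least 4.72-fold higher in 4-18 than in CN-10, at least 4.77-fold higher than in 3-44 and at least 4.76-fold higher than in shRNA3T (adjusted p = 1.62e-09, 1.64e-09 and 1.68e-09 by limma). For these bounds each dim array was given the higher of its own value and the lowest signal of a probe well above background. *Fgf21*, a fasting hormone of the liver, was 1.33-fold higher in 4-18 (adjusted p = 0.00085), where 3 of its 4 arrays were well above background.

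**Figure D5:**
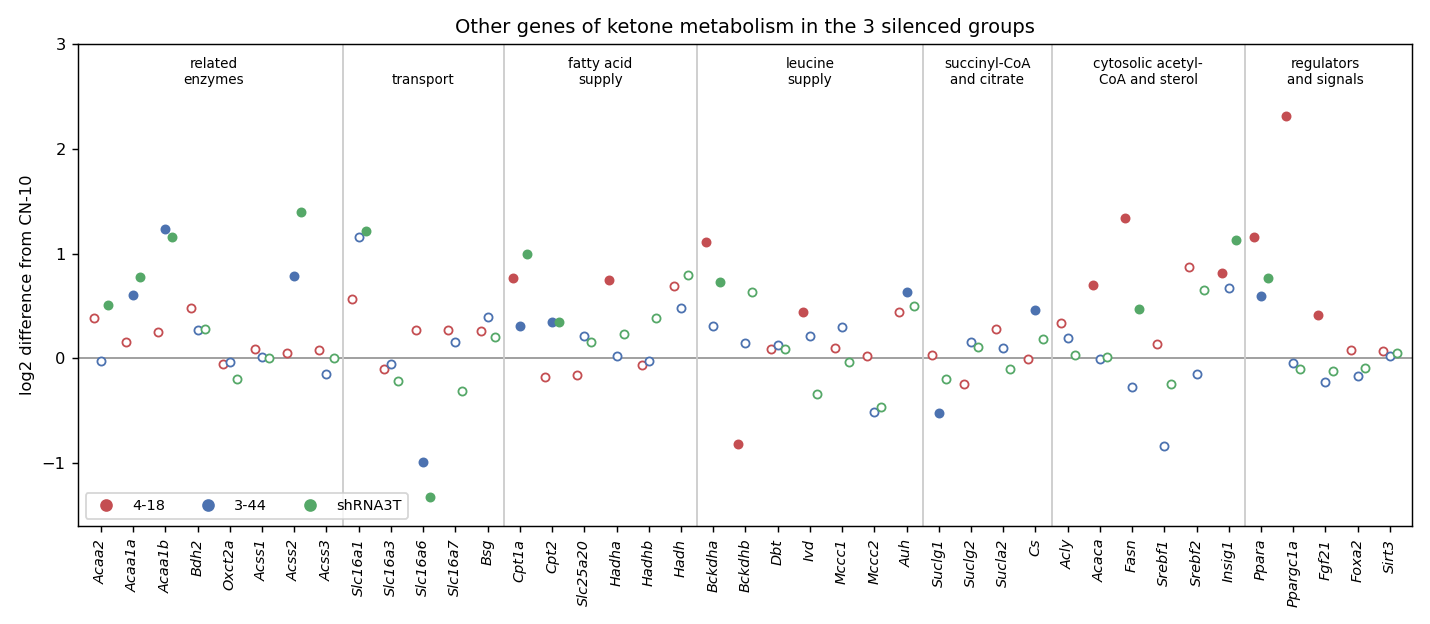
Log2 difference from CN-10 of the 41 other genes of ketone metabolism on the array, by role, in 4-18 (red), 3-44 (blue) and shRNA3T (green), filled where the adjusted p was under 0.05. *Cpt1a* and *Ppara* are filled in all 3 groups and *Slc16a6* is low in 3-44 and shRNA3T. The highest point is the fitted value of *Ppargc1a* in 4-18, whose fold is given with a floor in the text.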

How the data were processed

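The authors amplified and Cy3-labelled total RNA and hybridized it to Agilent 4x44K rat arrays. The deposited intensity values, per the file headers from Feature Extraction 10.7.3.1, are mean spot signals and local background medians on a linear scale, not normalized. The authors also deposited a table of log2 values whose decimal points were lost, used here as a score; restored, it equals the normexp-corrected median signal to 4e-11, unscaled between arrays. Columns of flags mark outlier spots and spots well above background. The authors used limma for background correction and normalization, by methods not given in the sources used here, and tested probes with its moderated statistic at a false discovery rate under 5%, with a 2-fold limit for their gene list. They name *Aacs* in upregulated pathways found from that list, while with the processing reported here its change was under 2-fold.

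The intensities were processed with limma 3.58.1 (R 4.3.3). Normexp with an offset of 50 removed background, log2 values were made comparable by quantile normalization, outlier spots were set aside and spots of 1 probe were combined by their mean. The model held all 16 arrays and 1 mean for each group, with empirical Bayes variances. A gene with several probes is given by its brightest. A probe counts as well above background on an array where at least 50% of its spots are marked so. Changed means a Benjamini-Hochberg adjusted p under 0.05 over all probes. Single values were also compared by exact permutation of arrays. The limma fit was tested on simulated normalized values with independent noise, and the permutation test on a known case. Background removal, normalization and the handling of spots were not tested in that way. The number of arrays limits the precision. Named genes are the members, list genes changed in all 3 comparisons with CN-10, of the rest the 2 with the lowest adjusted p in each role, and the 3 most similar genes per member. The members and lists were chosen with earlier results of these data known. Some steps of ketogenesis were not analysed here. Of the probes, 18006 matched the RefSeq gene table by accession, and all 4 members had the same symbol there. The alternatives covered background, scaling, filters, spots, the fit and each array left out.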

Additional observations from a re-analysis of the deposited data

Results flagged for a closer look

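*Aacs* on the array of 3-44 replicate 4 was 9.82 on the log2 scale, apart from the other 3 arrays of the clone at 9.96 to 9.97. *Aacs* on the array of shRNA3T replicate 4 was 10.12, where the other 3 were at 9.99 to 10.01. *Oxct1* on the array of 3-44 replicate 4 was 6.14, where the others were at 6.21 to 6.22, all at background. In each case the gap to the nearest array was most of the range of the group. These were 3 of 16 groups of 4 arrays examined, and about 1 in 20 is expected by chance. Both *Aacs* arrays remained above every CN-10 array.

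*Acat1* differed between the clones, with a log2 difference of -0.51 for 4-18 against 3-44 (adjusted p = 0.0407 by limma). The test compares the clones directly, and 11 of 28 alternatives did not pass it.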

How the results depend on the processing

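Against CN-10 the direction of *Aacs* held in all alternatives and that of *Acat1* in 4-18 and shRNA3T too. The number of the 4 genes changed in 4-18, 3-44 and shRNA3T was 1, 0 and 1 with the unscaled deposited values and 0 in each with a limit of 2-fold. It was 1 in shRNA3T with equal medians and 2 in 3-44 with array weights, where *Acat1* was -0.43. In 4-18 it was 3 with the quantile normalized processed signal and with equal medians, where the third gene was *Oxct1*, at background. Leaving out 1 array at a time left it at 2, 1 and 2. In 4-18 against 3-44 it was 2 with the processed signal under either scaling and with equal medians (*Acat1* and the background probe of *Oxct1*), 0 with only the 2 groups, with array weights and with limits of 1.5-fold or 2-fold, and 0 to 1 with 1 array left out. In 4-18 against shRNA3T it was 1 with the quantile normalized processed signal or equal medians (*Oxct1* alone), 1 with unscaled values (*Acat1*) and 2 with the 75th percentile (both). In 3-44 against shRNA3T it was 1 with the processed signal under either scaling, array weights or replicate 1 left out of every group, and 0 to 1 with 1 array left out.

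The replicate numbers are shared by the groups, but same-numbered arrays did not all deviate together (14 of 24 pairs over 0.1, median correlation 0.13, against 12 of 72 other pairs), and 9 of 16 arrays correlated best with their own number. The 6 pairs of replicate 1 were all over 0.1 (0.19 to 0.48), against 3, 2 and 3 of 6 for the others. The labels name nothing that a number shares, so the numbers were not taken to pair the arrays. With the replicate block, 1 gene changed in 3-44 against shRNA3T (*Acat1*, 0.43, adjusted p = 0.0204 by limma), *Pdrg1* passed in 4-18, 3-44 and shRNA3T (-0.77, -0.99 and -0.85), and no other count of the 4 genes changed.

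*Pdrg1* also passed in 4-18 at -0.83 (processed signal, quantile), -0.82 (75th percentile), -1.27 (equal medians), -1.52 (unscaled) and -0.41 (replicate 1 left out of every group). It passed in 3-44 at -0.99 (2 groups), -0.84 (array weights) and -0.82 (replicate 1 left out), and in shRNA3T at -0.96 and -0.98 (processed signal), -0.85 (2 groups), -0.77 (array weights) and -0.79 (replicate 1 left out). Without replicate 1 of 4-18 it also passed in 3-44 (-0.99, adjusted p = 0.0086 by limma) and shRNA3T (-0.85, adjusted p = 0.0149). With 1 array left out it ran from -0.92 to -0.33 in 4-18, from -1.09 to -0.74 in 3-44 and from -0.93 to -0.72 in shRNA3T. Values changed sign for *Bdh1* in 4-18 (0.0044 with array weights, 0.14 without replicate 1 of every group, -0.12 to 0.089 with 1 array left out), for *Acat1* in 3-44 (0.0025 and 0.0095 with the processed signal) and for *Suclg1* in 3-44 (0.0024 with the 75th percentile, a call as reported). In 4-18 against 3-44 *Aacs* was -0.0015, -0.35, -0.45 and -0.014 with the 75th percentile, equal medians, unscaled values and array weights (-0.0017 to 0.11 with 1 array left out), and *Bdh1* was -0.038, -0.086 and -0.18 with the first 3 (-0.019 to 0.27). In 4-18 against shRNA3T *Bdh1* was -0.15 with unscaled values, *Acat1* was 0.076 with array weights (-0.20 to 0.065 with 1 array left out) and *Aacs* ran from -0.10 to 0.0045 with 1 array left out and was -0.25, -0.48 and -0.70 with the 75th percentile, equal medians and unscaled values. In 3-44 against shRNA3T *Bdh1* was -0.018 without replicate 1 of every group. The causes were not tested.

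Of the 41 listed genes, with alternatives chosen after seeing the data, the number changed in 4-18 was 18 and 17 with the processed signal and 6 with unscaled values. In 3-44 it was 1 with equal medians and 1 with unscaled values, and 5 to 11 with 1 array left out, the low value coming without CN-10 replicate 2, 3 or 4 or 3-44 replicate 3. In shRNA3T it was 7 with equal medians and 3 with unscaled values. Setting arrays to equal medians or to the 75th percentile moved the median of all probes in 4-18 by 0.39 and 0.20 on the log2 scale, and relative to it *Aacs* was 0.17 and 0.54 and *Acat1* was -1.57 and -1.30. In shRNA3T the 75th percentile moved it by -0.23. The fold limits were not applied to single genes.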
